A study of Abies pinsapo with 12 samples.

Results

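A set of 302 needle transcripts of Spanish fir (Abies pinsapo) stood high in 3 of the 6 libraries of May 2017 and low in the other 3, with 1 library of each treatment on either side. The members were chosen from 329801 assembled transcripts by their May values. Each had to be at 10 or more in thinning plus shading May replicate 2, thinning May replicate 2 and control May replicate 1, called the 3 higher May libraries, and the lowest of these had to be at least 3 times the highest of the 3 lower May libraries. The lower libraries are thinning plus shading May replicate 1, thinning May replicate 1 and control May replicate 2. Of 325 transcripts that met both conditions, 2 were left out because their mean over the 12 libraries was not under 1000, and 21 because all their August values lay below all their May values. For 0 transcripts did all August values lie above all May values. Libraries are called below by treatment, month and replicate number, and "shaded" stands for thinning plus shading.

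RNA came from needles of adult trees in the field in southern Spain, in August 2016 and May 2017, with 2 libraries for each treatment and month. Trees of both the shaded group (Thinning and Shading in the labels) and the thinning group grew in stands thinned in 2004, the shaded ones also under a mesh that was meant to lower light to about that of control stands. Control trees grew in adjacent unthinned stands, and each treatment had 3 plots of 100 m2. The labels do not say whether the 2 replicates of a group are different trees, so the spread that p-values rest on may be technical. Month and year cannot be told apart.

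Firs are evergreen. New needles expand from buds in spring, while needles of earlier years stay on the shoot, and expanding and mature conifer needles generally differ in the transcripts of growth, cell walls and photosynthesis. The labels give neither the age nor the stage of the needles sampled. The August libraries were therefore described against both sets of May libraries, to see which side August needles resembled in these transcripts. The identifiers of the deposited table come without gene names or sequences, so no function is given for any transcript, and needle marker genes could not be checked.

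Values are scaled TPM, a transcript's share of its library corrected for length and multiplied by 1 factor per library. Sequencing depth is unknown, because TPM does not keep it. Library sums ran from 856638 to 1179097, and between 81710 and 117855 transcripts were above 0 in 11 libraries. Thinning May 1, a lower library, stood apart with 208032; without it the rule found 311 transcripts.

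The members were an appreciable part of the needle transcripts in the higher libraries. Their summed level made up 1.69% of the library in shaded May 2, 7.45% in thinning May 2 and 3.59% in control May 1, against 0.117% in shaded May 1, 0.104% in thinning May 1 and 0.160% in control May 2. These sums lean on a few abundant members. TRINITY_DN13956_c0_g1 and TRINITY_DN13956_c0_g2 held 1490 and 1519 of 19534 in shaded May 2, and 332 and 351 of 1327 in shaded May 1. The median member was at 22.4 in shaded May 2, 95.5 in thinning May 2 and 53.1 in control May 1. In the lower libraries it was at 0.932 in shaded May 1, 0.919 in thinning May 1 and 2.42 in control May 2. The ratio of the lowest higher library to the highest lower one had a median of 8.34 and quartiles of 4.17 and 23.3. It was 10 or more in 137 members and 50 or more in 27, and 11 members were listed at 0 in all 3 lower libraries. These values chose the members and are a description. Among the 19726 transcripts tested below, 2921 (14.8%) had all 3 higher libraries above all 3 lower ones, at any ratio, and 2555 had the reverse.

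**Figure D1:**
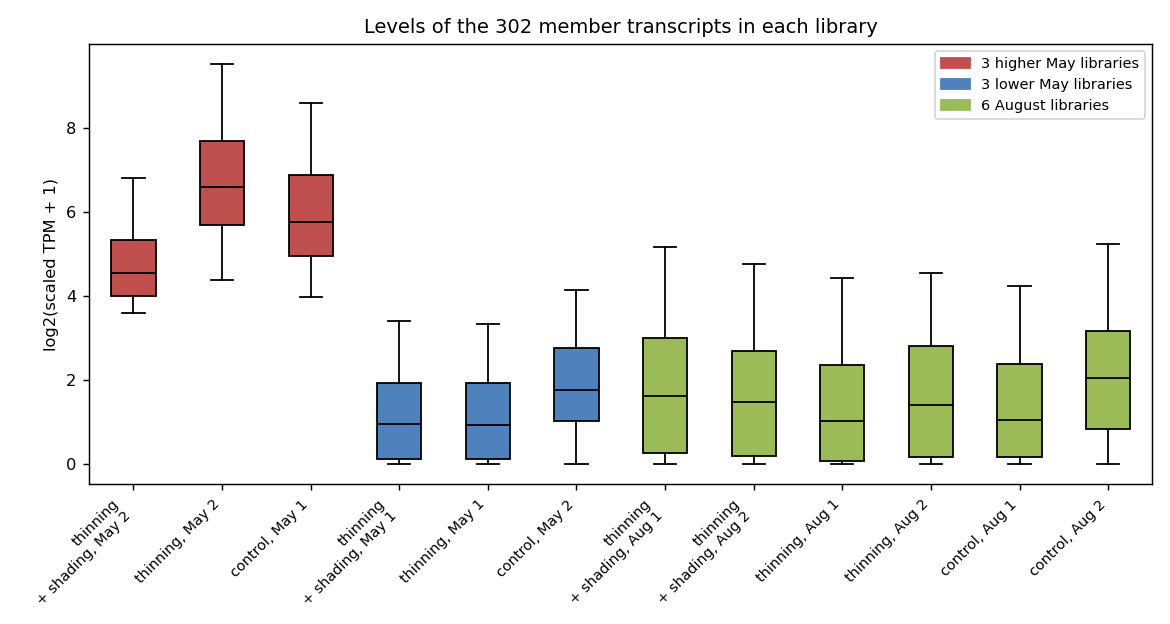
Levels of the 302 members in each of the 12 libraries, as log2(scaled TPM + 1), with libraries on the horizontal axis. Boxes span the quartiles with the median as a line, and whiskers reach the 5th and 95th percentiles. The August boxes overlap the lower May boxes, but their medians and upper quartiles lie above those of shaded May 1 and thinning May 1.

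The 8 members with the highest mean over the higher libraries included 5 of assembly cluster DN376, and 3 of these, in component DN376_c2, had 1 profile. TRINITY_DN376_c2_g1 stood at 959 in shaded May 2, 4251 in thinning May 2 and 1584 in control May 1. Its lower May values were 4.10 in shaded May 1, 3.27 in thinning May 1 and 27.5 in control May 2. In August it was at 2.71 and 2.22 in shaded, 0 and 2.83 in thinning, and 4.76 and 62.6 in control replicates 1 and 2. Control August 2 was thus above every lower May library, and the other 5 August libraries were below 5. TRINITY_DN376_c2_g2, TRINITY_DN376_c2_g3 and, from another cluster, TRINITY_DN14068_c0_g2 had a like shape, at 35.3, 43.3 and 32.9 in control August 2 and between 0.457 and 1.93 in the other August libraries. Reads may be divided among similar transcripts of a component, so these values are uncertain and not independent.

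TRINITY_DN376_c1_g2 and TRINITY_DN376_c1_g3, members in the neighbouring component DN376_c1, differed from this shape in August. The component as a whole did not, since TRINITY_DN376_c1_g1, tested but not a member, had the August shape of DN376_c2. It was at 63.2 in control August 2 and between 2.35 and 4.2 in the other August libraries. TRINITY_DN376_c1_g2 was at 1319 in shaded May 2, 3760 in thinning May 2 and 1381 in control May 1, against 4.59 in shaded May 1, 8.37 in thinning May 1 and 26.2 in control May 2. Its August values were 7.13 and 11.3 in shaded, 2.5 and 5.92 in thinning, and 1.52 and 19.8 in control trees. Control August 2 was again the highest August library, but both shaded libraries also lay above both thinning libraries. TRINITY_DN376_c1_g3 had the largest ratio between the May sets of all members with a lower library at 1 or more, at 55.9.

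Some members were close to absent outside the higher libraries. TRINITY_DN2800_c0_g1 was at 155 in shaded May 2, 3111 in thinning May 2 and 1661 in control May 1, and at 0.543 in shaded May 1, 0.448 in thinning May 1 and 7.65 in control May 2. In August it lay between 0.177 and 1.31 in all 6 libraries. TRINITY_DN369_c0_g5, named after its values were seen, was at 17.4 in shaded May 2, 121 in thinning May 2 and 88.7 in control May 1, and was listed at 0 in the other 9 libraries. In all, 7 members were listed at 0 in every lower May and every August library, and 67 were under 1 in every August library.

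The members also differed among the 3 higher libraries, in an order that the rule did not use. Thinning May 2 was the highest of the 3 in 273 of 302 members (90.4%), against 38.8% of tested transcripts. Shaded May 2 was the lowest in 265 members, against 40.9% of tested transcripts. The full order, thinning May 2 above control May 1 above shaded May 2, held in 244 members (80.8%) and in 29.7% of tested transcripts. The ratio of shaded May 2 to control May 1 had a median of 0.419 and quartiles of 0.281 and 0.675. For thinning May 2 over control May 1 the median was 1.74, with quartiles of 1.42 and 2.21. Each treatment has 1 library here, so these differences have no replicate check. Shaded May 2 mostly set the lowest higher value, and without it the rule found 1032 transcripts.

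**Figure D2:**
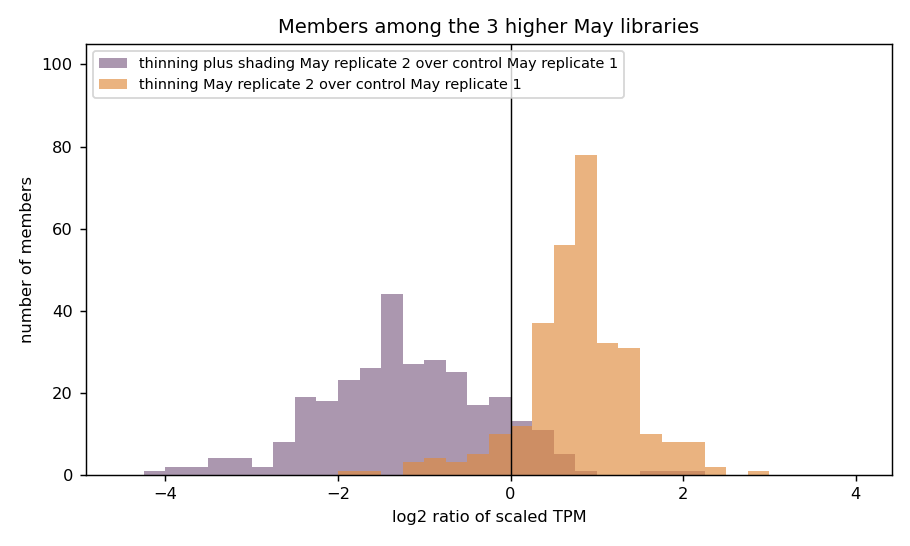
Number of members by the log2 ratio of shaded May replicate 2 and of thinning May replicate 2 to control May replicate 1. Most members lie left of 0 for the shaded library (median ratio 0.419) and right of 0 for the thinning library (median ratio 1.74).

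An order also appeared among the 3 lower libraries. Control May 2 was the strictly highest in 216 members (71.5%), against 48.5% of tested transcripts, followed by thinning May 1 in 42 and shaded May 1 in 33. Control May 2 held 35 members at 10 or more, thinning May 1 held 15 and shaded May 1 held 14. The highest lower value is thus mostly that of control May 2.

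In August the members were low in all 3 treatments, far closer to the lower than to the higher May libraries. All August medians lay above those of shaded May 1 and thinning May 1. The median member was at 2.11 and 1.79 in shaded, 1.04 and 1.67 in thinning, and 1.08 and 3.18 in control replicates 1 and 2. Their summed level was 0.535% and 0.471% of the library in shaded, 0.253% and 0.332% in thinning, and 0.232% and 0.383% in control trees. All 6 sums lie above those of the lower May libraries and below those of the higher ones. The sum leans on TRINITY_DN13956_c0_g1 and TRINITY_DN13956_c0_g2, which are described below.

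Measured member by member, the median of the 6 August libraries was at or below the highest lower May library in 203 of 302 members (67.2%). It lay between both sets in 91 (30.1%) and at or above the lowest higher library in 8 (2.65%). All 6 August libraries were at or below the highest lower library in 106 members, and all 6 were under the lowest higher library in 279 (92.4%). The first share depended on 1 library and on the scaling: under the rule without control May 2 it was 37.2% of 427 transcripts, and it was 53.7% of 311 after quantile normalization and 60.1% of 278 without the library factor. The August values enter the rule only through the overlap and the mean, and with the 21 transcripts of the overlap clause kept it was 69.3%.

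By treatment, the mean log2 level of the August group was at or below the highest lower May library in 182 members in shaded, 210 in thinning and 188 in control trees. It reached the lowest higher library in 11 members in shaded, 9 in thinning and 4 in control trees. All 3 groups were at or below the highest lower library in 146 members. Across members the August median correlated at r = 0.742 with the highest lower May value and at 0.305 with the lowest higher one, on the log2 scale over 302 members. The rule set a minimum for the lowest higher value but none for the highest lower one, and it tied both by a minimum ratio. The choice of members thus shaped both correlations, and their difference cannot show which May set August resembled. Members of 1 component share reads, so the points of these correlations are not independent and no p is given.

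**Figure D3:**
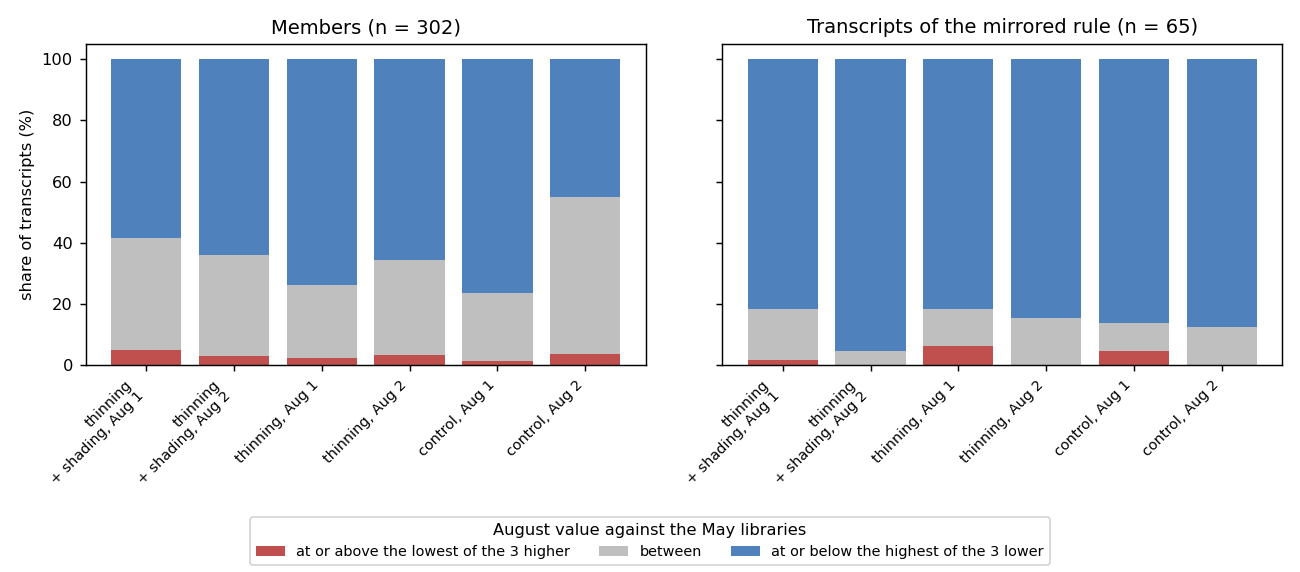
Share of transcripts (%) whose value in each August library was at or above the lowest of the 3 higher, between, or at or below the highest of the 3 lower May libraries, for the 302 members and for the 65 transcripts of the mirrored rule. For members the blue share is smallest in control August 2 (136 members) and largest in control August 1 (231 members).

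A low August level was not confined to this side of the May split. The mirrored rule, with the lower and higher libraries exchanged, found 65 transcripts, and in 56 of them (86.2%) the August median was at or below the highest of their lower May libraries. It was between in 9 and at or above in 0. August needles thus lay on the low side of both kinds of transcript in most cases, and the 2 shares were not tested against each other, since transcripts are not replicates.

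The members fell along a range of August levels. In 124 members the August median was under 1, and these had the widest May split, with a median ratio of 22.6. In 136 it was from 1 to under 10, with a ratio of 5.81, and in 42 it was 10 or more, with a ratio of 3.55. The median level in shaded May 2 as a share of control May 1 was 36.4% in the first, 43.4% in the second and 60.9% in the third of these bands. The lower May libraries enter both the ratio and the rule, so these ratios are a description.

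Of the members with August values between both May sets, TRINITY_DN13956_c0_g2 and TRINITY_DN13956_c0_g1 were the most abundant, at nearly the same values. TRINITY_DN13956_c0_g2 was at 1519 in shaded May 2, 3056 in thinning May 2 and 1749 in control May 1, against 351 in shaded May 1, 275 in thinning May 1 and 231 in control May 2. August values were 1344 and 849 in shaded, 544 and 594 in thinning, and 435 and 495 in control trees. Both shaded libraries were above all 4 others, and none reached the higher May libraries. The shaded minus control difference was 1.20 log2 units (SE 0.30, limma adjusted p = 0.167), so it was not called.

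TRINITY_DN240_c1_g2 showed August libraries on both sides. It stood at 69.1 in shaded May 2, 140 in thinning May 2 and 59.5 in control May 1, against 13.3 in shaded May 1, 2.72 in thinning May 1 and 14.9 in control May 2. August gave 67.4 and 44.3 in shaded, 19.5 and 60.2 in thinning, and 11.6 and 54.4 in control trees. The replicates of thinning and of control thus differed more than the groups did. TRINITY_DN33075_c0_g1 had a like spread, from 14.2 in thinning August 1 to 97.0 in control August 2. TRINITY_DN299_c0_g1 was at 503 in thinning May 2, between 9.56 and 12.5 in the lower May libraries and between 4.53 and 26.9 in August. TRINITY_DN5242_c0_g2 was even in August, from 14.8 in thinning August 1 to 31.8 in control August 2, above the lower May libraries (6.29 to 10.7) and below the higher ones (124 to 331).

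TRINITY_DN10296_c0_g1 was the member with the highest August median among those at or below the lower May libraries. It had 128 in shaded May 2, 538 in thinning May 2 and 278 in control May 1, against 20.3 in shaded May 1, 30.1 in thinning May 1 and 39.8 in control May 2. August values were 92.2 and 70.3 in shaded, 23.1 and 32.5 in thinning, and 23.7 and 40.3 in control trees. The shaded libraries did not overlap with the other 4, yet the shaded minus thinning difference of 1.52 log2 units (SE 0.33) was not called, with a limma adjusted p of 0.386. TRINITY_DN704_c0_g1 had a matching profile, at 86.6 and 61.9 in shaded and between 18.4 and 39.0 in the 4 other August libraries. TRINITY_DN2483_c0_g1 and TRINITY_DN22956_c1_g3, next in August level within this class, were also highest or close to highest in shaded August 1, at 24.7 and 21.7, with 14.5 and 29.4 in control August 2.

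The 8 members whose August median reached the higher May libraries show the opposite case, in which the 3 lower May libraries were set apart from that median. Single August libraries could still lie lower. TRINITY_DN2742_c0_g2 was at 12.7 and 22.2 in thinning August and at 11.3 in control August 1, under the 29.0 of shaded May 2. TRINITY_DN2668_c0_g1 was at 77.0 in shaded May 2, 297 in thinning May 2 and 81.5 in control May 1, against 19.8 in shaded May 1, 21.1 in thinning May 1 and 11.6 in control May 2. Its August values were 263 and 815 in shaded, 127 and 71.8 in thinning, and 257 and 210 in control trees, all above the lower May libraries. TRINITY_DN19311_c0_g1 was at 70.3 in shaded May 2, 80.0 in thinning May 2 and 73.8 in control May 1, and at 1.94 in shaded May 1, 2.52 in thinning May 1 and 19.7 in control May 2. In August it was at 72.7 and 119 in shaded, 49.7 and 104 in thinning, and 11.2 and 69.2 in control trees. Control August 1 alone fell within the range of the lower May libraries.

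TRINITY_DN10500_c0_g2 was the steadiest of the 8 in August, at 44.3 and 51.5 in shaded, 57.5 and 33.1 in thinning, and 31.6 and 37.6 in control trees. It had 29.3 in shaded May 2, 88.8 in thinning May 2 and 65.1 in control May 1, against 2.14 in shaded May 1, 4.21 in thinning May 1 and 8.86 in control May 2. It was the only member with all 6 August libraries at or above the lowest higher one. The other 5 were TRINITY_DN19311_c0_g2, TRINITY_DN10500_c0_g1, TRINITY_DN2742_c0_g2, TRINITY_DN677_c1_g4 and TRINITY_DN319_c1_g1. The number reaching the higher libraries was 14 without the library factor, 4 by the mean log2 level of August and 2 with a 5-fold rule.

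**Figure D4:**
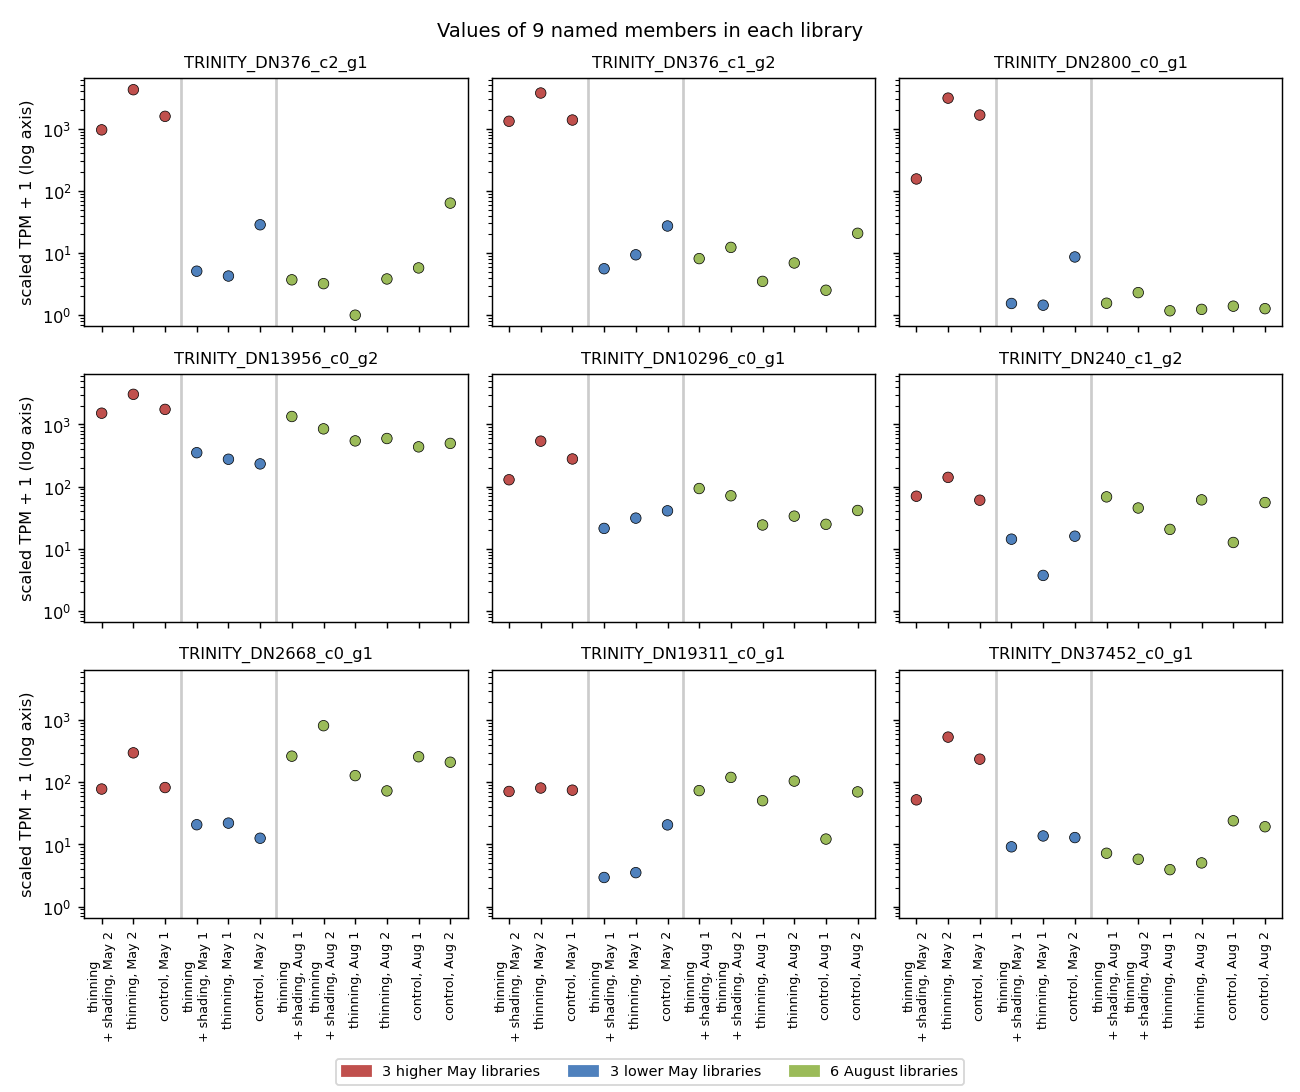
Values of 9 members in each of the 12 libraries (scaled TPM + 1, logarithmic axis), with the higher May, lower May and August libraries from left to right. TRINITY_DN2668_c0_g1 and TRINITY_DN19311_c0_g1 lie high in August (August medians 233 and 70.9), whereas TRINITY_DN2800_c0_g1 is under 2 in all 6 August libraries.

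Among the August libraries, control August 2 was most often the highest for these transcripts. The summed level was larger in both shaded libraries, but that sum leans on TRINITY_DN13956_c0_g1 and TRINITY_DN13956_c0_g2. They held 1314 and 1344 of 4976 in shaded August 1 and 830 and 849 of 4156 in shaded August 2. In control August 2 they held 499 and 495 of 3374. Without this pair the sum of shaded August 1 lies below that of control August 2, but the sum of shaded August 2 stays above it. Control August 2 was the strictly highest of the 6 in 120 members (39.7%), against 16.9% of tested transcripts. For control August 1 this held in 22 (7.28%), against 20.0%. At value + 1, control August 2 was at least 2 times control August 1 in 100 members (33.1%) and in 5.69% of tested transcripts. Only 28 members were listed at 0 in control August 2, against 51 and 52 in shaded, 59 and 57 in thinning, and 53 in control August 1. The control group therefore averages over unlike libraries for these members.

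Treatment differences in August were tested with limma on the 6 August libraries, without the May libraries whose spread chose the members, at an adjusted p under 0.05. Shaded minus control called 0 of 302 members, with a background of 0.907% over all 19726 tested transcripts, and 26 members (8.61%) had an unadjusted p under 0.05 against 18.5%. Thinning minus control called 1 member (0.331%), which was lower, with a background of 1.43% in either direction and 1.27% lower, and 28 (9.27%) had an unadjusted p under 0.05 against 16.4%. Shaded minus thinning called 0, with a background of 0.0203%, and 32 (10.6%) had an unadjusted p under 0.05 against 10.2%. In this fit the members' shares are thus near or under the background. Against control this did not hold without control August 1, in fits that leave 1 control library. Only 62 of the 302 were at 10 or more in at least 2 August libraries, and the 95% confidence limits lay, at the median, 0.966 log2 units from the estimate over members and 0.650 over all tested transcripts.

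The 1 called member, TRINITY_DN37452_c0_g1, was lower in thinned trees. Its August values were 2.94 and 4.05 in thinning trees, against 23.1 and 18.3 in control trees, with 6.22 and 4.79 in shaded trees. Both thinned groups lay below both control libraries without overlap. The thinning minus control difference was -2.27 log2 units (SE 0.25, limma adjusted p = 0.042), and that of shaded minus control was -1.74 (SE 0.25, limma adjusted p = 0.080). Both comparisons share the control libraries. The call was lost without any 1 of the 6 August libraries (limma adjusted p from 0.096 to 0.213), with replicate number as a block (0.096), in the fit of all 12 libraries (0.812), in the fit of the 4 libraries compared (0.097) and with no filter (0.113). In May this member was at 51.3 in shaded May 2, 534 in thinning May 2 and 235 in control May 1, against 8.17, 12.7 and 11.9 in shaded May 1, thinning May 1 and control May 2.

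The direction of the members' August differences was uneven. Shaded trees lay above thinning trees in both libraries in 93 members (30.8%, background 21.4%) and below in 25 (8.28%, background 18.8%), and the median difference was 0.16 log2 units against 0.04 over all tested transcripts. Thinning trees lay above control trees without overlap in 24 members (7.95%, background 21.8%) and below in 75 (24.8%, background 25.8%), with a median of -0.13 against -0.02. Shaded trees lay above control trees in 51 members (16.9%, background 24.6%) and below in 37 (12.3%, background 26.7%), with medians of 0.00 in members and in all transcripts. Members listed at 0 in several libraries cannot separate groups, which lowers these counts. After quantile normalization the medians were 0.07 for shaded minus thinning, 0.03 for thinning minus control and 0.03 for shaded minus control. Over all tested transcripts they were then 0.003, 0.054 and 0.041. The sign of the thinning difference was thus not kept, although its member median still lay below that of all tested transcripts, by less than before. Without control August 1 the medians were -0.38 for thinning and -0.17 for shaded minus control, and without control August 2 they were 0.02 and 0.22, so both signs turned with the control library. The shaded minus thinning median also depended on single libraries. Without thinning August 1 it was 0.042, against 0.041 over all tested transcripts, and without shaded August 1 it was 0.049, against 0.005. Without thinning August 2 it was 0.249, against 0.007, and without shaded August 2 it was 0.245, against 0.053. With the filter set on August, which left 62 members, the medians were 0.46 for shaded minus control, 0.44 for shaded minus thinning and 0.03 for thinning minus control, against 0.00, 0.03 and 0.00 over all transcripts that passed it. Those 62 were kept for their August levels, so these medians are a description.

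**Figure D5:**
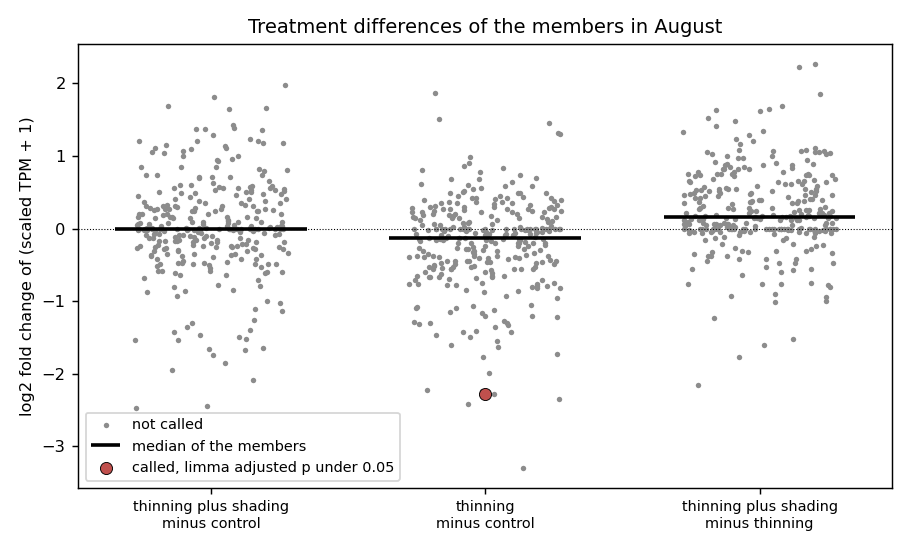
Log2 fold change of each of the 302 members in the 3 August comparisons, from limma on log2(scaled TPM + 1), with the median of the members as a bar and spread sideways only to separate points. TRINITY_DN37452_c0_g1, at -2.27 for thinning minus control, is the 1 called member.

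Differences from control also changed with the control library. Without control August 1, the member medians of -0.38 for thinning and -0.17 for shaded minus control stood against -0.03 and -0.01 over all tested transcripts. Without control August 2, the member medians of 0.02 and 0.22 stood against 0.00 and 0.00. In these fits the lone control library is assumed to vary like the other groups. TRINITY_DN12224_c0_g1, named after its values were seen, was at 0.214 and 0.344 in shaded, 0 and 0 in thinning, and 0.562 and 9.14 in control August 1 and 2. TRINITY_DN617_c0_g1, likewise, was at 0 and 0.053 in shaded, 0 and 0.120 in thinning, and 0 and 7.82 in control trees. Both are low in every August library but control August 2, and in May they reached 148 and 84.9 in thinning May 2.

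The members came from 215 assembly components, and in 77 of these components 2 or more members lay together, 164 members in all. In 145 components every tested transcript was a member, counting components with only a single tested transcript. The other components held 122 tested transcripts that were not members. In 59 of these the lowest higher library was at least 2 times the highest lower one, counting those with both at 0, such as TRINITY_DN1428_c0_g1. In 4, all 3 lower libraries lay above all 3 higher ones. TRINITY_DN8222_c0_g3 is 1 of these 4, at 16.6 in shaded May 2, 1.72 in thinning May 2 and 10.3 in control May 1, against 27.2 in shaded May 1, 44.4 in thinning May 1 and 27.9 in control May 2. Its partner TRINITY_DN8222_c0_g1, a member, was at 14.4 in shaded May 2, 109 in thinning May 2 and 39.8 in control May 1, against 0.893, 1.39 and 1.05 in shaded May 1, thinning May 1 and control May 2. In August the partner was between 14.6 and 21.2 and the member between 0.589 and 4.63, so that the more abundant of the pair in August was also the more abundant in the lower May libraries. Both were chosen after their values were seen.

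Near the 3-fold threshold, the members just inside were TRINITY_DN3631_c1_g1, TRINITY_DN82359_c0_g2 and TRINITY_DN674_c0_g2, with ratios of 3.02, 3.04 and 3.05. The transcripts just outside were TRINITY_DN3946_c0_g2, TRINITY_DN4795_c0_g4 and TRINITY_DN4997_c0_g2, with ratios from 2.975 to 2.978. A 2-fold rule gave 436 transcripts, and a 5-fold rule gave 212.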

How the data were processed

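The authors deposited 1 table with 1 column per library. Trimmomatic, RSEM and DESeq2 appear in the submitters' processing notes, with no version; how the assembly, scaling and filtering were done is not given in the sources used here. As its values show, the deposited signal is TPM with 2 decimals times 1 factor per library: after rescaling each column to the TPM total, at least 99.3% of values above 0 lay within 0.1 step of a multiple of 0.01. The protocol text speaks of pine roots, while the tissue and organism labels give needles of fir, which were followed.

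Columns were matched to samples by description, and groups came from the titles. Limma 3.58.1 in R 4.3.3 was run on log2(scaled TPM + 1), with 3 group means and an intensity trend, for the 19726 transcripts at 10 or more in at least 2 of the 12 libraries. P-values were two-sided and adjusted by the Benjamini-Hochberg method over all of them within each comparison. Fold changes are on that log2 scale, which understates changes of low transcripts. The fit was tested on simulated data with normal noise, with changes only in transcripts at a mean August level of about 10 or more. Most members lie lower, so changes in them were not simulated.

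Named transcripts are the 8 highest members, the 6 with the largest ratio, the 4 highest by May and by August level in each August class, called members, and those nearest the threshold; a few are given by name only or within a range. The members and lists were chosen with earlier results of these data known.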

Additional observations from a re-analysis of the deposited data

How the results depend on the processing

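The number of members was between 212 and 436 with other folds, scalings or clauses, but 516 with a minimum of 5 and 56 with a minimum of 50, of which 325 and 41 had their August median at or below the highest lower May library. Without 1 library the members numbered from 289 to 1032 and those at or below from 159 to 632. Thinning minus control called 282 transcripts, but 129 with a filter of 50, 448 after quantile normalization, 176 in the fit of all 12 libraries, 67 in the fit of the groups compared and from 9 to 102 without 1 August library. Shaded minus control called 179, but 77 with a pseudocount of 0.5, 0 with no filter, 86 with a filter of 50, 340 after quantile normalization, 37 in the fit of all 12 libraries, 0 in the groups compared and from 0 to 101 without 1 August library. Shaded minus thinning called 4, but 0 with a pseudocount of 8, a filter of 50, a filter on August, all 12 libraries or the groups compared, 94 with no filter, 2 without the library factor, 1 after quantile normalization and from 0 to 12 without 1 August library. Among members, thinning minus control called 1, but 0 with no filter, in all 12 libraries and in the groups compared, and from 0 to 18 without 1 library. Shaded minus control called 0, but 1 after quantile normalization and from 0 to 18 without 1 library, and shaded minus thinning 0, but from 0 to 1 without 1 library. The cause was not tested. TRINITY_DN37452_c0_g1 kept its sign in every alternative and its call in 6 of 17.

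The replicate numbers were not taken as pairs, since same-numbered August replicates deviated together in only 1 of 3 pairs of groups: the correlation of deviations was 0.22 between thinning and control, -0.17 between shaded and control and -0.18 between shaded and thinning. They share only a number. With replicate number as a block, thinning minus control called 32 transcripts and 0 members, and shaded minus control and shaded minus thinning 0. With the 2 shaded numbers exchanged in that block, chosen after seeing the data, the counts were 39, 0 and 0, with 0 members. Depth is unknown, so low values carry no counting interval.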

Other observations

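The 2 transcripts left out for their mean were the most abundant of those meeting the level and fold conditions. TRINITY_DN7993_c0_g1 was at 1247 in shaded May 2, 14891 in thinning May 2 and 7150 in control May 1, against 8.65 in shaded May 1, 180 in thinning May 1 and 249 in control May 2. Its August values were 110 and 76.0 in shaded, 278 and 88.3 in thinning, and 39.4 and 12 in control trees. TRINITY_DN5592_c0_g1 had a like shape, with 14762 in thinning May 2. In both, thinning August 1 was the highest August library and control August 2 the lowest, unlike most members. Among the 21 transcripts left out because August lay below May, TRINITY_DN3941_c0_g2 was at 425 in shaded May 2, 3040 in thinning May 2 and 1498 in control May 1, against 1.21 in shaded May 1, 0.542 in thinning May 1 and 12.4 in control May 2, and between 0 and 0.380 in August. These 3 were named after their values were seen.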
